A study of Arabidopsis thaliana with 6 samples.

Results

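Between root tips labelled as gibberellin (GA) treated for 120 min and all untreated root tips, 27 of 10232 probe sets stood apart by at least 1.3 times on both treated arrays, 18 with higher and 9 with lower signals. The 27 were chosen by the deposited signals themselves: the mean over the 6 arrays had to reach 50, and both treated arrays had to lie at least 1.3 times above the highest, or at least 1.3 times below the lowest, of the 4 untreated arrays. They made up 0.264% of the 10232 probe sets bright enough to enter, with 0.176% higher and 0.088% lower, out of 22746 probe sets that were not array controls. Of the 27, 15 matched 1 gene (10 higher and 5 lower) and 12 were without a gene name in the annotation used here. The differences between treated and untreated roots are therefore given below as descriptions with no test, since those signals chose the members.

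The arrays were Affymetrix ATH1 arrays, on which each gene is read by a set of short probes combined into 1 signal, and each sample was hybridised to 1 array. Seedlings of Arabidopsis thaliana aged 7 days had grown on sucrose-containing medium in continuous light, and RNA came from root tips. There were 2 arrays each of untreated Col-0 roots at 0 min, untreated Col-0 roots at 120 min, and roots labelled GA at 120 min. Beside the Col-0 background, the treated samples were marked as a gene knock out and had GA2oxOE1I as their source, whereas the untreated samples carried Col-0 alone, so plant line and treatment cannot be told apart. The labels used here state no GA dose and do not say whether replicates came from separate cultures, so the spread between arrays may be technical.

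Gibberellins are growth hormones that bind GID1 receptors. The bound receptor recruits DELLA proteins, which hold back growth genes, and an SCF complex with the F-box protein SLY1 then marks the DELLA proteins for breakdown. In roots, GA is known for promoting cell elongation and for its action through the endodermis. In whole root tips, fewer cells of a type and less RNA per cell cannot be told apart.

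The first treated array stood apart in RNA quality. Its 3' to 5' signal ratio of actin, which grows when the 5' end of a transcript is under-represented, was 14.8, against 2.22 to 4.94 on the other 5 arrays. The GAPDH ratio was 1.76 against 0.759 to 1.36, and the ubiquitin ratio 1.80 against 0.859 to 1.14. Over the 10232 probe sets, replicates differed in log2(signal + 16) with an SD of 0.37 for the untreated 0 min pair, 0.46 for the untreated 120 min pair and 0.59 for the treated pair. The part of RNA quality in the values below was not tested.

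Of the 15 ways to set 2 of the 6 arrays against the other 4, the treated pair ranked 10 by the number of probe sets standing apart. The treated pair gave 18 higher and 9 lower. The pair of untreated arrays at 0 min gave 9 higher and 28 lower, and that of untreated arrays at 120 min gave 1 higher and 11 lower, so the 3 pairs of 1 group ranged from 12 to 37 in all. The treated pair had the most higher probe sets of the 3 and the fewest lower ones. Pairs that shared a replicate number across groups gave more, from 57 to 255 over 6 pairs with a median of 149. The largest count, 255, was that of treated and untreated 120 min replicate 2 (173 higher and 82 lower), followed by 234 for treated and untreated 120 min replicate 1 and 213 for treated and untreated 0 min replicate 1. The 6 pairs that shared neither group nor replicate number gave 8 to 137 with a median of 22. These counts are a description of 6 arrays, and no p-value was derived from them.

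**Figure D1:**
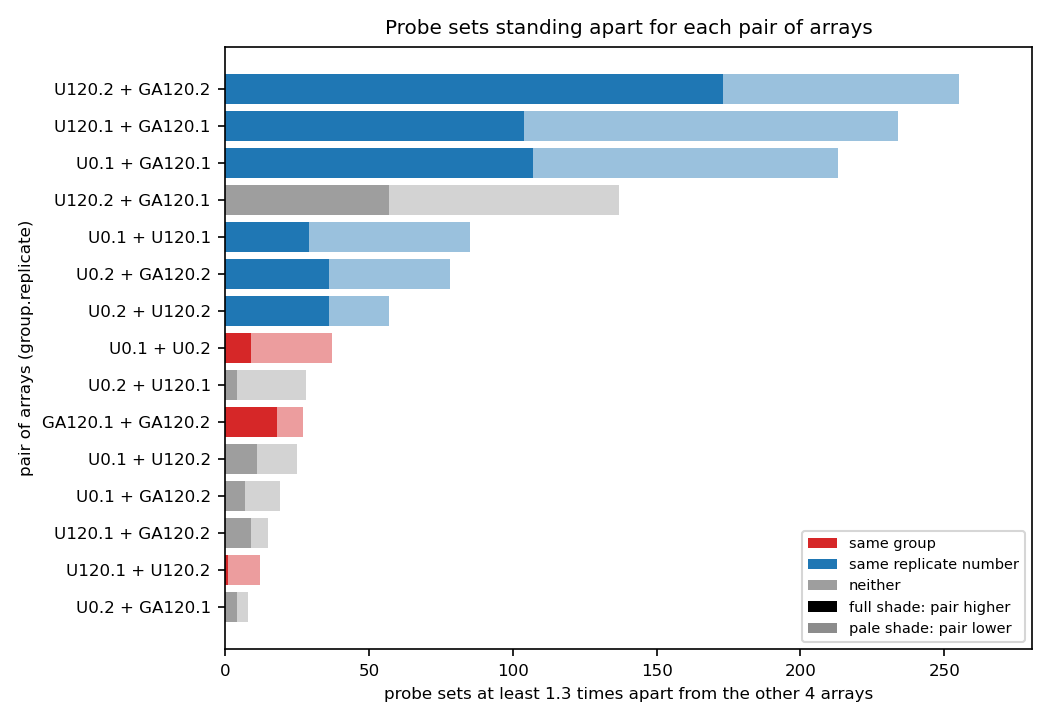
Number of probe sets at least 1.3 times apart from the other 4 arrays (x axis) for each of the 15 pairs of arrays (y axis; U0, untreated 0 min; U120, untreated 120 min; GA120, treated; the digit after the point is the replicate). Full shade is higher in the pair and pale shade lower; colours mark pairs of 1 group, of 1 replicate number, or neither. The treated pair, with 18 and 9, lies below all 6 pairs that share a replicate number.

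Of the 18 higher probe sets, 10 had a named gene. AT5G39580 encodes a class III peroxidase, a family of secreted haem enzymes that act on hydrogen peroxide and cell wall phenolics. Without treatment its signals on replicates 1 and 2 were 32.7 and 20.6 at 0 min and 45.4 and 46.2 at 120 min, and with treatment they were 62.2 and 186. This was the largest ratio of means among the named higher genes, 3.43, and it leaned on treated replicate 2, since the treated arrays themselves differed 2.99 times. UGT84A4, a glucosyltransferase that makes glucose esters of hydroxycinnamic acids, read 70.6 and 81.4 at 0 min, 90.5 and 100.4 at 120 min, and 145 and 132 in treated roots. Its treated mean was 138 ± 8.60 (SD, n = 2) and its untreated mean 85.7 ± 12.7 (SD, n = 4 over both times), a ratio of 1.62. In both genes the untreated arrays at 120 min lay between those at 0 min and the treated ones, with no overlap between the 3 groups.

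A receptor, a lipid-binding protein and a zinc finger protein were also among the higher genes. AT5G51630 encodes an intracellular immune receptor of the TIR-NBS-LRR class. It read 68.7 and 58.9 at 0 min, 65.6 and 69.4 at 120 min, and 98.3 and 90.6 in treated roots, where the treated mean was 1.44 times the untreated mean. AT5G47710, a protein with a calcium-dependent lipid-binding C2 domain, read 67.3 and 69.2, 75.7 and 59.8, and 102 and 100.4 in the same order, and the ratio was 1.49. AT1G19310, a RING-type zinc finger protein of the kind that acts in ubiquitin ligation, read 57.8 and 86.6 at 0 min, 56.3 and 91.6 at 120 min, and 123 and 137 in treated roots. Its untreated replicates differed more than its times did: both replicate 2 arrays lay above both replicate 1 arrays. The ratio of its means was 1.78, from 130 ± 10.2 (SD, n = 2) against 73.1 ± 18.6 (SD, n = 4).

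**Figure D2:**
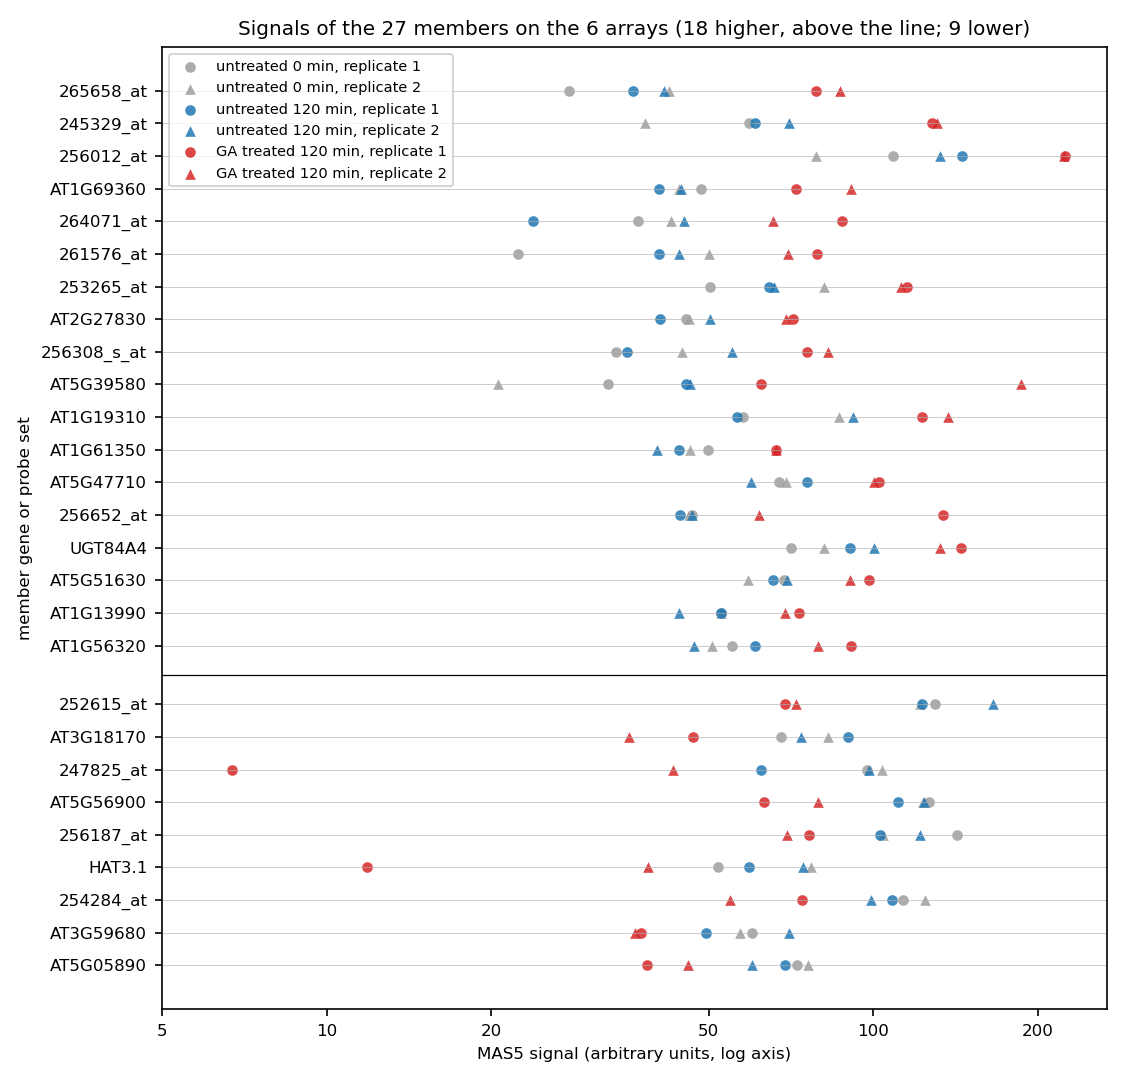
MAS5 signal on a log axis (x) for each of the 27 members (y), with 1 point per array: grey, untreated 0 min; blue, untreated 120 min; red, treated; circles, replicate 1; triangles, replicate 2. The red points lie to the right of all others in the upper 18 and to the left in the lower 9, and treated replicate 1 lies far to the left in HAT3.1 (11.9) and 247825_at (6.72).

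The remaining 5 named higher genes had signals close to the floor of 50. AT1G69360 had the largest gap of the named higher genes, with its lowest treated array 1.49 times its highest untreated one. It read 48.5 and 44.1 at 0 min, 40.6 and 44.5 at 120 min, and 72.0 and 91.0 in treated roots (treated mean 81.5 ± 13.4, SD, n = 2; untreated mean 44.4 ± 3.23, SD, n = 4). AT2G27830 followed with a gap of 1.38 times, at 45.5 and 46.0, 40.6 and 50.2, and 71.4 and 69.1. The treated arrays of AT2G27830 were within 1.03 times of each other. AT1G61350, an armadillo-repeat protein, read 49.9 and 46.3 at 0 min, 44.1 and 40.3 at 120 min, and 66.4 on each treated array. AT1G13990 read 52.7 and 52.6 at 0 min, 52.5 and 44.0 at 120 min, and 73.2 and 68.8 in treated roots. In both of these genes the untreated arrays at 120 min lay below those at 0 min, the side away from the treated arrays. In AT1G13990 the nearest arrays were almost tied, at 52.5 and 52.6. AT1G56320 stood just inside the threshold, at 55.2 and 50.7, 60.8 and 46.9, and 90.9 and 79.1.

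Of the 9 lower probe sets, 5 had a named gene. HAT3.1, a homeodomain protein with a PHD finger, showed the largest ratio among them: its untreated mean was 65.7 ± 12.0 (SD, n = 4) and its treated mean 25.3 ± 19.0 (SD, n = 2), 2.60 times lower. Its signals were 52.0 and 77.0 at 0 min, 59.2 and 74.5 at 120 min, and 11.9 and 38.7 in treated roots, so the size of the difference leaned on treated replicate 1, the array with the actin ratio of 14.8. AT3G18170, a member of glycosyltransferase family 61, whose members add sugars to wall polysaccharides or glycoproteins, read 67.7 and 82.4, 89.9 and 73.6, and 46.8 and 35.7 in the same order. Here treated replicate 2 was the lower array. AT5G05890, a UDP-glucosyltransferase, read 72.4 and 75.8 at 0 min, 69.0 and 59.9 at 120 min, and 38.5 and 45.8 in treated roots. It differed in direction from UGT84A4, the other UDP-glucosyltransferase among the 15 named genes.

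The last 2 named lower genes had the tightest arrays on 1 side. AT5G56900, a CwfJ-like protein with a zinc finger, read 126 and 123 at 0 min, 111 and 124 at 120 min, and 63.1 and 79.2 in treated roots. Its untreated mean was 121 ± 6.93 (SD, n = 4) and its treated mean 71.1 ± 11.4 (SD, n = 2). AT3G59680 read 60.1 and 56.9, 49.4 and 70.1, and 37.6 and 36.6, so its treated arrays were within 1.03 times of each other while its untreated arrays spread over 1.42 times.

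The widest gaps of all belonged to probe sets without a gene name. Probe set 265658_at read 27.8 and 42.2 at 0 min, 36.4 and 41.4 at 120 min, and 78.4 and 86.7 in treated roots, a gap of 1.86 times. Probe set 245329_at read 59.1 and 38.2, 60.8 and 70.1, and 128 and 131, a gap of 1.82 times. Among the lower ones, 252615_at read 129 and 122 at 0 min, 123 and 165 at 120 min, and 69.0 and 72.1 in treated roots, a gap of 1.69 times. In these 3 probe sets the treated arrays lay within 1.11 times of each other. Probe set 247825_at read 97.2 and 104 at 0 min, 62.3 and 98.2 at 120 min, and 6.72 and 43.1 in treated roots, which made treated replicate 1 6.41 times lower than replicate 2. The other 6 higher unnamed probe sets had gaps of 1.32 to 1.54 times and the other 2 lower ones 1.34 and 1.35 times.

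As a set, the 27 were dim. Their median mean signal was 65.5, against 124 over the 10232 probe sets, and 22 of them (81.5%) had a mean under 100, against 39.0% of all. None of the 27 had a mean signal above 152. The treated arrays were within 1.3 times of each other for 20 of the 27 (74.1%), against 47.4% of all 10232, a property that the required gap favours. They were over 2 times apart for 4, namely AT5G39580, HAT3.1, 247825_at and 256652_at, the last named after its values were seen, or 14.8% against 12.5% of all. Treated replicate 1 was the lower of the pair in 11 of the 27 and in 47.5% of all probe sets. Any gap at all between the treated pair and the untreated arrays, without the 1.3 times, was present for 9.03% of the 10232 probe sets, 400 higher (3.91%) and 524 lower (5.12%). Set against its other 4 arrays in the same way, the untreated 0 min pair gave 671 higher and 479 lower. The untreated 120 min pair gave 284 and 366, and the pair of treated and untreated 120 min replicate 2 gave 1032 and 1445. The floor of 50 worked on the mean over all 6 arrays. Of the 18 higher members, 9 had an untreated mean under 50 and reached the floor only through the treated arrays, and of the 9 lower members 5 had a treated mean under 50 and reached it only through the untreated arrays. The balance of 18 higher and 9 lower differed with these settings, at 50 and 49 with a floor of 25, 2 and 3 with a floor of 100, and 44 and 48 with a gap of 1.2 times.

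**Figure D3:**
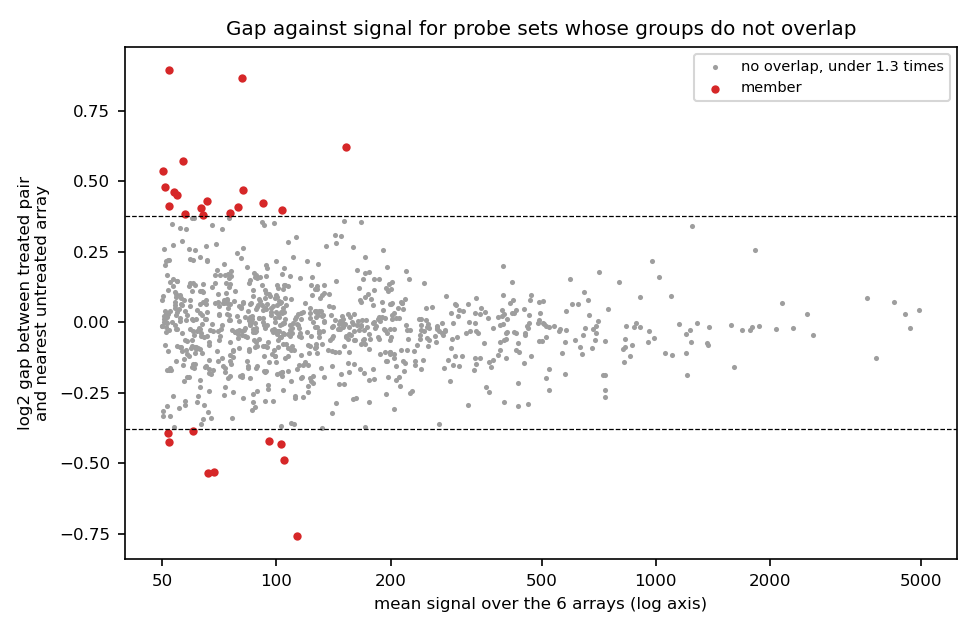
Gap in log2 between the treated pair and the nearest untreated array (y axis; positive, treated higher) against the mean signal on a log axis (x) for the 924 probe sets whose treated and untreated arrays do not overlap. Dashed lines mark 1.3 times; the 27 members (red) lie at mean signals of 50.3 to 152.

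The threshold of 1.3 times passed through a continuum. Inside it, AT1G56320 had a gap of 1.3003 times and AT1G13990 one of 1.305 times. Just outside lay AT1G03660 (1.293 times), with 94.0 and 93.9 in treated roots against a highest untreated signal of 72.6, and AT5G41180 (1.292 times). On the lower side AT5G05890 (1.307 times) and AT3G59680 (1.313 times) lay just inside. Just outside were AT2G34050 (1.296 times) and rbcL (1.292 times), the plastid gene for the large subunit of Rubisco. The rbcL signals were 81.0 and 59.3 at 0 min, 59.8 and 64.0 at 120 min, and 11.6 and 45.9 in treated roots, lowest on treated replicate 1. At 1.5 times, 3 higher and 1 lower probe sets were left, and at 2 times none were left in either direction.

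The balance between directions depended on how the arrays were scaled. With the signals as deposited it was 18 higher and 9 lower, under quantile normalization 18 and 13, and under median centring 11 and 21. The median of log2(signal + 16) was on average 0.038 higher in treated than in untreated arrays. Centring shifted each array by its own median. These medians ran from 5.78 to 5.87 on the untreated arrays, highest on 0 min replicate 1, and were 5.88 and 5.81 on treated replicates 1 and 2. Of the 18 higher members 10 met the criteria again after centring and 15 after quantile normalization, and of the 9 lower ones 8 did so in each case. The single treated arrays differed in how far they stood from the untreated ones. Treated replicate 1 by itself stood 1.3 times above the 4 untreated arrays for 696 probe sets and below them for 1021, while treated replicate 2 by itself did so for 176 and 258. Leaving out an untreated array raised the higher count to between 21 (without 0 min replicate 2) and 94 (without 120 min replicate 2) and the lower count to between 23 and 43 (without the same arrays), because fewer arrays had to be cleared. Without untreated replicate 1 the counts were 36 and 26 when it was the 0 min array and 37 and 30 when it was the 120 min array.

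The fit over all probe sets called nothing for treated against untreated roots. In limma, with Benjamini-Hochberg adjustment over 13647 tested probe sets, 0 (0%) passed at 0.05 for the treated group against the mean of both untreated groups, and the smallest adjusted p was 1. Before adjustment, 278 of 13647 (2.04%) had a p under 0.05, 127 higher and 151 lower in treated roots. All 27 members were among the tested probe sets, and no p-values are given for them in this comparison. On the log2(signal + 16) scale, which understates differences of dim genes, the members' differences ran from 0.39 to 1.301 for the higher and from -1.52 to -0.49 for the lower ones. The median of the 18 higher ones was 0.64 against the untreated 120 min group and 0.73 against the untreated 0 min group, and that of the 9 lower ones was -0.62 and -0.70. Over all 10232 probe sets these medians were -0.006 and -0.021. The comparisons share the treated arrays and are not separate evidence.

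For time without treatment, the log2 difference took no value from the treated arrays. The required gap still limits how far the 4 untreated arrays can spread. The SE and p-values came from 1 fit of all 3 groups, so the spread of the treated pair entered them. Between untreated roots at 120 and 0 min, limma called 0 of 13647 probe sets (0%) with a lowest adjusted p of 1, and 147 (1.08%) had an unadjusted p under 0.05. None of the 27 members passed, and 0 had an unadjusted p under 0.05, with a lowest of 0.0568. The median log2 difference was 0.018 for the higher and -0.080 for the lower members, against -0.014 over the 10232 probe sets. AT5G39580 had the largest difference, 0.55 ± 0.42 (SE, n = 2 per group), followed among the named genes by UGT84A4 with 0.28 ± 0.22.

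The untreated arrays of the 2 times did not overlap for 8 of the 27 (29.6%), against 25.9% of all 10232. Of all 10232, the 120 min arrays lay above the 0 min arrays for 11.1% and below them for 14.8%. In 6 of the 8, the 120 min arrays lay on the same side of the 0 min arrays as the treated arrays did: AT5G39580, UGT84A4, 245329_at and 256012_at among the higher ones, and AT5G05890 and 254284_at among the lower ones. AT1G61350 and AT1G13990 were the other 2, with the untreated 120 min arrays on the opposite side. The nearest arrays of the 2 times were almost tied in AT1G13990 (52.5 and 52.6) and close in 245329_at (60.8 and 59.1). Probe sets 256012_at and 254284_at are named here after their values were seen. The share of non-overlapping members was near the background, and the 6 and 2 were not tested against each other.

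**Figure D4:**
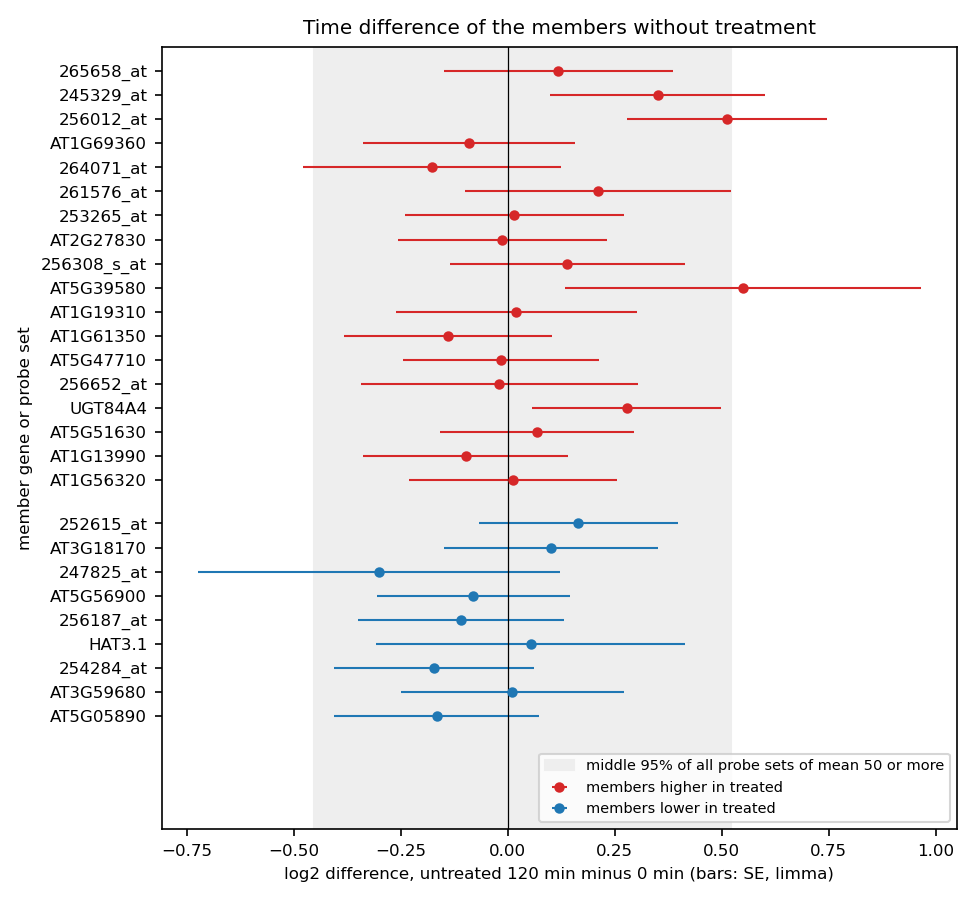
Log2 difference between untreated roots at 120 and 0 min (x axis) for each of the 27 members (y). Bars are the SE from limma, which uses the spread within all 3 groups. Red marks members higher and blue members lower in treated roots, and the grey band holds the middle 95% of all probe sets of mean 50 or more, from -0.45 to 0.52. AT5G39580, at 0.55, is the only member outside the band.

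None of the 15 named members was on a list of GA genes. Of 27 genes in lists of GA synthesis and breakdown, GA perception and DELLA proteins, and GA-regulated genes, 8 had a named probe set and 4 of these had a mean signal of 50 or more. Of these 4, 0 met the criteria in either direction, which at a background of 0.264% says nothing about GA genes as a group, and the 12 unnamed members could not be checked against the lists. No GA 2-oxidase gene was named, so the plant line was not checked by its own transcript. For 3 of the 8, 1 treated array lay above and the other below all 4 untreated arrays. The share of all probe sets with this pattern was not counted, so nothing about GA genes is read from the 3. GID1B, a GA receptor, was one of them, with 88.9 and 164 at 0 min, 101 and 73.0 at 120 min, and 4.87 and 214 in treated roots. SLY1, with treated signals of 79.2 and 162 against 107 to 159 in untreated roots, and AT2G14900, a GA-regulated family protein, with 857 and 529 against 538 to 821, were the others. GID1C, a further receptor below the floor, was the 1 gene of the 8 whose treated arrays both lay below the untreated ones, by a gap of 1.01 times. Of the 10232 probe sets that reached the floor, 5.12% lay below in this way.

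Of 27 cell type marker genes, 6 were named, all with a mean of 50 or more. Of these 6, 0 were members, against a background of 0.264%, so nothing is read from that count, and the other marker genes could not be checked. The summed signal of the root hair expansins EXPA7 and EXPA18 was 560 to 700 in untreated and 449 and 527 in treated roots. EXPA7 by itself overlapped, with 175 and 277 in treated roots against a lowest untreated signal of 266. EXPA18 lay below by a gap of 1.04 times, and 5.12% of the 10232 probe sets lay below without overlap. The summed signal of the mitotic kinases AUR1 and AUR2 was 164 to 199 in untreated and 254 and 168 in treated roots. For the green tissue genes RCA and LHCB4.1 the sum was 228 and 276 at 0 min and 183 and 462 at 120 min. Treated roots gave 151 and 275. Within each group the root hair and green tissue sums were higher on replicate 2, and the AUR1 and AUR2 sum on replicate 1. LHCB4.1 by itself was higher on replicate 1 at 0 min, and the kinase sums there were close, at 199 and 196. Markers of root cap, endodermis, stele and stem cell niche had no named probe set. The green tissue genes had signals on every array, as the root hair and dividing cell genes did. RCA had a mean of 194 and LHCB4.1 one of 68.7, against 127 for AUR1 and 69.4 for AUR2. The root tip label was therefore not checked by these lists. The part of cell composition in the members' values was not tested.

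The 15 named members were spread over the genome. By their locus names 5 lay on chromosome 1, 1 on chromosome 2, 3 on chromosome 3, 1 on chromosome 4 and 5 on chromosome 5, and none were next to each other, the closest pair being 186 genes apart in the RefSeq table. Their median gene length was 2077 bases, introns included, against 2334 for the 5372 named probe sets of mean 50 or more that had a length, with a range of 952 (AT1G56320) to 6813 (AT5G51630). Of the 27 probe sets, 1 had a suffix that marks probes shared between genes (3.70%), against 3.85% of all.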

How the data were processed

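Total RNA of 6 root tip samples was labelled by a one-cycle protocol and hybridised to ATH1 arrays, per the labels' protocols. The deposited values were MAS5 signal intensity per probe set on a linear scale. The submitters' processing notes name MAS5 and GCOS, and versions and a genome build were not given in the sources used here. The mean after removing the lowest and highest 2% was 100.01 on each array. MAS5 summarises each array by itself, which leaves low signals noisy. The number of arrays limits the precision.

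Groups and replicate numbers came from the sample titles. Array controls (64 probe sets) were used for quality alone. Genes were named from a platform annotation of 2016, and symbols were brought up to date by gene identifier in a RefSeq table (TAIR10.1). That table's symbols and synonyms held none of the function words searched for the 15 named members, so no function classes are given, and roles are background knowledge. No sequences were used here.

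The members were found in Python 3.11.15. Probe sets with a mean above the 40th percentile (25.8), taken to log2(signal + 16), were fitted in limma 3.58.1 (R 4.3.3) with the 3 groups in 1 fit, 3 residual and 5.80 prior degrees of freedom, eBayes with trend, two-sided. The members and lists were chosen with earlier results of these data known. All 15 genes with a named probe set are given, and of unnamed probe sets the 2 with the largest gap in each direction.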

Additional observations from a re-analysis of the deposited data

How the results depend on the processing

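The counts of 18 higher and 9 lower probe sets changed with each setting tried, and least under quantile normalization. That gave 18 and 13, with 15 of the higher and 8 of the lower members kept. A gap of 1.2 times gave 44 and 48, 1.5 times gave 3 and 1, 2 times gave 0 and 0, and any gap at all, added after seeing the data, gave 400 and 524. A mean signal of 25 or more gave 50 and 49, and one of 100 or more gave 2 and 3. Adding 16 to each signal gave 6 and 4, and median centring 11 and 21. With each array left out the counts ranged from 21 to 696 and from 23 to 1021. Without an untreated array fewer arrays had to be cleared, and without a treated array only the other treated array had to clear all untreated ones. The highest count in each direction came without treated replicate 2. The limma count of 0 for treated against the mean of untreated roots lay between 0 and 14 when single arrays were left out. The 14, all lower, came without treated replicate 2, when the only treated array was the one with the actin ratio of 14.8 and was assumed to vary like the other groups. The count was 0 under the other limma settings, as was that for time under every limma setting run. With the replicate number as a block, limma called 0 in both comparisons, with lowest adjusted p-values of 0.875 and 0.716. Before adjustment, a p under 0.05 was then given to 316 higher and 420 lower probe sets for treated against untreated roots (127 and 151 without the block) and to 267 higher and 136 lower ones for time (89 and 58 without it). Replicate differences correlated between groups at 0.385 to 0.438 across probe sets, which are not independent, and the labels do not say that a number marks a shared batch. The promoter motif search was not run. Low signal limits these results: 22 of the 27 had a mean under 100.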
